A study of Mus musculus with 8 samples.

Results

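The histone genes described here are all those whose name in the scanner files begins with Hist1h, Hist2h, Hist3h, Hist4h, H2af or H3f. The rule took 60 genes with 76 probes, out of 34945 gene names and 55681 probes on the array that are not controls. Of these, 49 genes (57 probes) are clustered histone genes of the H1, H2A, H2B, H3 and H4 classes, and 11 genes (19 probes) are variants of H2A and H3. The rule uses gene names alone, but it was set with earlier results of these data known. All 60 genes had at least 1 probe that was well above background on 4 or more of the 8 arrays, so all 60 were tested; the only probe left out was a second probe of Hist4h4, which was above background on 0 of 8 arrays.

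Histones are the proteins that DNA is wound around: H2A, H2B, H3 and H4 form the core of the nucleosome, and H1 binds the linker between cores. The clustered genes are replication-dependent. They lie side by side in the genome, have no introns, and are transcribed mainly in S phase, when new DNA has to be packed; their messenger RNA normally ends in a short hairpin, bound by the stem-loop binding protein, in place of a poly(A) tail. The variant genes stand apart, carry introns in most cases and make polyadenylated RNA through the cell cycle: H2A.Z and H3.3 mark active and regulatory chromatin, H2A.X is phosphorylated at DNA breaks, and macroH2A is linked with silent chromatin.

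The RNA came from satellite cells, the stem cells of skeletal muscle, which were isolated from the hindlimbs of 3 to 4 month old C57BL/6J mice and cultured. Cells were sorted, grown overnight and transduced with lentivirus, and eGFP-positive cells were sorted 5 days after transduction. The control group carried an integrated eGFP cDNA and the other group integrated Hoxa9 and eGFP cDNAs; Hoxa9 is a homeobox transcription factor. Both groups therefore share lentiviral transduction, eGFP and the second sort; which promoter drives the cDNAs is not stated in the labels. Each group had 4 samples, numbered as experiments 1 to 4 in both and called replicates below, and the comparison asks what Hoxa9 overexpression changed. Since no label states whether same-group samples are separate mice or cultures, a p-value here reflects sample-to-sample spread that may be technical. Each sample was hybridised to its own single-colour Agilent array from 0.1 µg of RNA, with a kit that is known to copy RNA from its poly(A) tail. Whether the signal of a clustered gene came from RNA with or without a tail was not measured.

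Levels below are log2 signals relative to the array's 75th percentile, given for replicates 1 to 4 in that order, and each difference is the Hoxa9 mean minus the eGFP mean, over 4 arrays in either group (n = 4). Errors are SD for group means and SE for differences, and adjusted p-values come from limma with the Benjamini-Hochberg adjustment over all 27107 genes tested. A gene is called when its adjusted p is under 0.05. Levels of different probes are not compared with each other, since probes bind with different strength.

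Between 69.6% and 77.5% of the spots of an array that are not controls were well above background, and precision is limited by the number of arrays. The brighter of the Hoxa9 probes was 5.98 higher on the log2 scale in the Hoxa9 arrays (adjusted p = 1.97e-05 with each probe tested singly), and the other Hoxa9 probe was 1.74 lower (adjusted p = 0.000270); the labels do not state which of them the transduced cDNA covers. All 9 satellite cell and myoblast markers were above background on every array, and 6 of them fell, where 7.42% of all genes tested were called lower and 7.83% higher. Their mean level lay between 4.27 and 4.45 on the eGFP arrays and between 3.24 and 3.41 on the Hoxa9 arrays. Of 8 immune marker names, of which Adgre1 and Emr1 stand for the same gene, 6 genes were tested. By limma 0 of them were called (0 also at an unadjusted p under 0.05). Their array means were -0.30 to 0.30 for eGFP and -0.56 to 0.58 for Hoxa9. Ptprc, the defining one, was not above background on enough arrays. Of 6 endothelial markers 4 were tested and 0 were called by limma (1 lower at an unadjusted p under 0.05), without Tek and Emcn, at array means of -2.01 to -1.58 and -2.81 to -2.02. Of 8 fibroblast and fibro-adipogenic markers 6 were tested, with array means of -0.90 to 0.48 and -0.83 to 1.02, and 1 rose (Ly6a, by 4.55); Tcf21 and Dpt were not tested. Of the 6 smooth muscle and pericyte markers 1 rose and 1 fell, with array means of -0.62 to 0.18 and -0.35 to 0.72. The part of these markers in the histone results was not tested.

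Most clustered histone genes fell with Hoxa9. Of the 49 genes, 28 were lower and 2 were higher, and 19 had no call; 57.1% were thus lower, beside 7.42% of all genes tested, and 2 were higher beside 7.83% of all genes. At least 2-fold changes were found for 22 of the lower and 2 of the higher genes. In 31 genes every Hoxa9 array lay below every eGFP array, which held for 12.5% of all genes, and in 4 every Hoxa9 array lay above, which held for 11.1%. The median difference of the 49 genes was -0.88, beside -0.07 for all genes. The median level of the clustered genes was 1.63, 1.68, 1.93 and 1.74 on the eGFP arrays and 0.71, 0.80, 1.34 and 1.12 on the Hoxa9 arrays, so the arrays of the groups did not overlap. In a bulk sample, fewer cells in S phase and less histone RNA per S-phase cell cannot be told apart. Several of the 49 genes are read through shared sequence, as described below, so their calls are not 49 independent measurements.

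Among the 11 variant genes, 4 fell (36.4%, beside 7.42% of all genes), 0 rose and 7 had no call in limma, with a median difference of -0.60. At an unadjusted p under 0.05, 6 were lower and 0 higher. No test of the difference between clustered and variant genes was made. Of the 4 lower variants, H2afj is read by a probe that shares bases with clustered H2A probes, and its second probe had 0.14 without a call. The median level of the variants was 3.297, 3.22, 3.14 and 3.25 on the eGFP arrays and 2.78, 2.78, 2.67 and 2.81 on the Hoxa9 arrays. The variant count was 2 without eGFP replicate 2 or without Hoxa9 replicate 1, and 6 without Hoxa9 replicate 2. Without eGFP replicate 2 the count of lower genes over the whole array was 1288 in place of 2010, while the clustered genes kept 26 of their 28 calls.

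**Figure D1:**
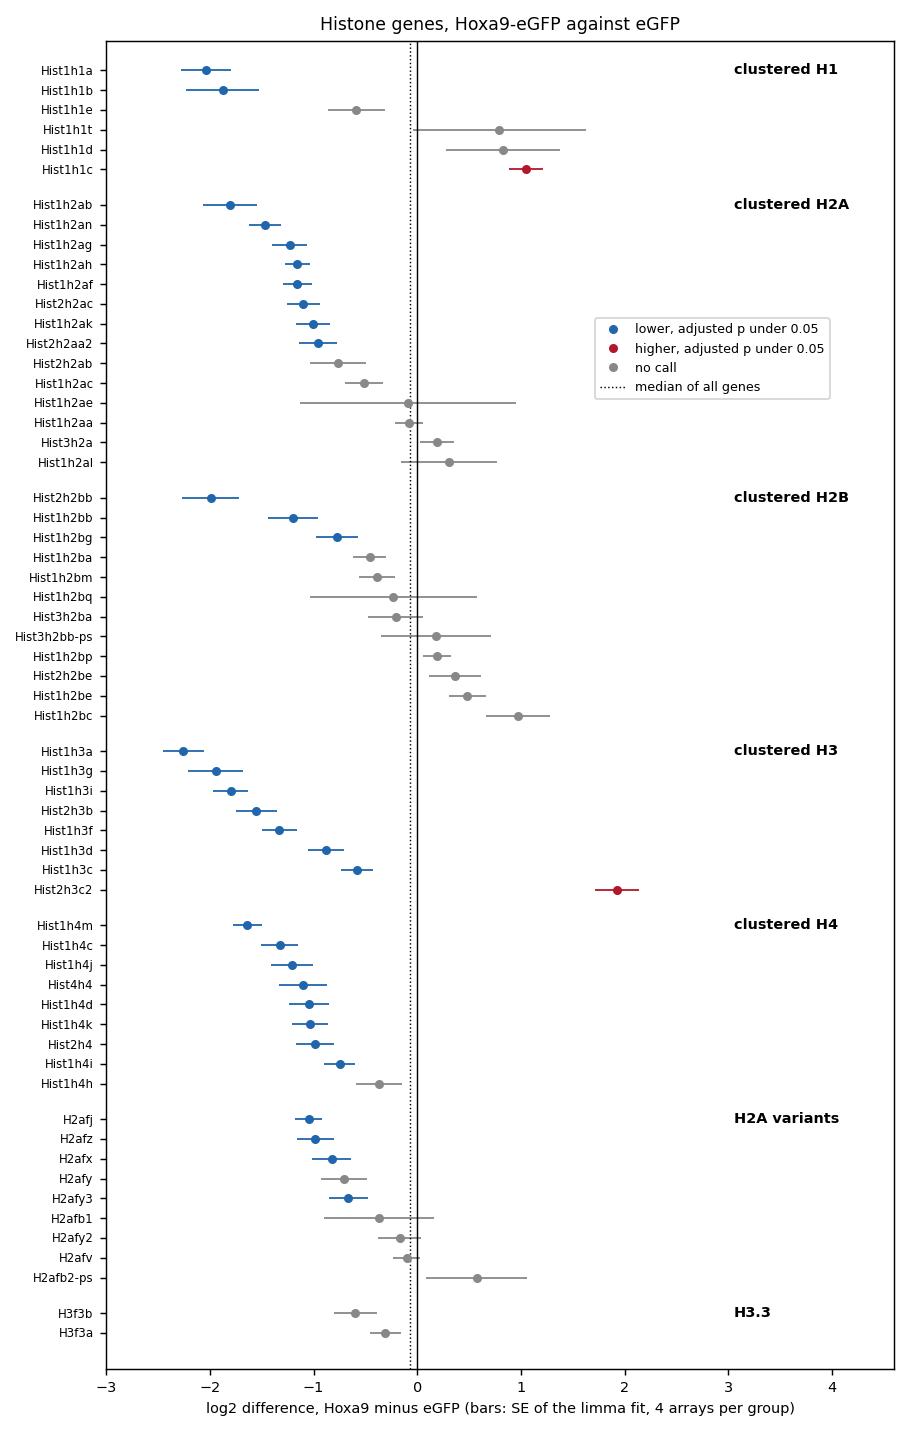
Log2 differences (x axis, Hoxa9 minus eGFP) of the 60 histone genes, 1 row per gene, ordered within the classes named at the right; points are limma estimates, bars their SE over 4 arrays per group, colours the call, and the dotted line the median of all genes. In H3 and H4, 7 of 8 and 8 of 9 genes lie on the lower side with a call and Hist2h3c2 is called higher, while H2B genes lie on both sides of 0.

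The 3 slides each held arrays of both groups. Within slides the median difference of the clustered genes was -0.69, -1.09 and -0.92, and it was -0.97 with the slide as a block, where 26 were lower and 2 higher. For the variants the within-slide medians were -0.88, -0.35 and -0.45, and the block gave -0.62, with 3 lower. By experiment number the clustered median was -0.91, -0.88, -0.82 and -1.02, and the variant median -0.54, -0.54, -0.29 and -0.69. The clustered genes thus kept a negative median on each slide and in each experiment, and so did the variants, over a wider range.

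H3 was the class in which all genes were called. Of 8 clustered H3 genes, 7 fell and 1 rose, beside 7.42% lower and 7.83% higher of all genes, with a median difference of -1.44. Hist1h3a read -0.87, -0.71, -0.83 and -0.84 on the eGFP arrays and -3.48, -2.75, -2.76 and -3.28 on the Hoxa9 arrays. It had the largest fall of all 60 genes, 4.78-fold, from -0.81 ± 0.07 to -3.07 ± 0.37 (log2 difference -2.26, SE 0.20, adjusted p = 0.000231), and the eGFP arrays lay close together. Hist1h3i read 0.93, 0.78, 1.07 and 1.06 with eGFP and -0.97, -1.05, -0.47 and -0.87 with Hoxa9. It fell 3.48-fold (difference -1.80, SE 0.17, adjusted p = 0.000332) without overlap of the groups. The other H3 genes that fell were Hist1h3g (-1.94), Hist2h3b (-1.55), Hist1h3f (-1.33), Hist1h3d (-0.88) and Hist1h3c (-0.58). The last, whose groups lay 2.15, 2.001, 2.06 and 2.11 against 1.32, 1.35, 1.83 and 1.49, had the smallest fall of the class. Its call (adjusted p = 0.0356, limma) was lost with the replicate block (0.0612) and on leaving out any single array other than Hoxa9 replicate 3 (0.0699 to 0.101).

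Hist2h3c2 went the other way. This gene of the smaller cluster on chromosome 3 read -1.24, -1.28, -0.84 and -0.50 with eGFP and 0.61, 1.08, 1.05 and 1.09 with Hoxa9. It rose 3.80-fold (difference 1.92, SE 0.22, adjusted p = 0.000747), and every Hoxa9 array lay above every eGFP array, replicate 1 being the lowest of the Hoxa9 arrays. Within the slides it differed by 2.35, 1.68 and 1.56. Its probe lists no RefSeq transcript in the files.

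Among H4 genes, 8 of 9 fell and 0 rose in limma, beside 7.42% lower and 7.83% higher of all genes, with a median of -1.05. At an unadjusted p under 0.05 the H4 counts were also 8 and 0. Hist1h4m read -0.19, -0.04, 0.07 and -0.23 with eGFP and -1.76, -1.94, -1.64 and -1.60 with Hoxa9. Its 3.12-fold fall (difference -1.64, SE 0.14, adjusted p = 0.000233) was several times the spread within either group. Hist1h4c read 1.63, 1.68, 1.83 and 1.58 and 0.26, -0.04, 0.53 and 0.65, a difference of -1.33 (SE 0.18, adjusted p = 0.00174). Hist1h4j read 2.12, 2.13, 2.46 and 2.39 and 0.91, 0.63, 1.34 and 1.37, a difference of -1.21 (SE 0.20, adjusted p = 0.00496). In both genes the Hoxa9 arrays lay below all eGFP arrays, with Hoxa9 replicate 2 the lowest. Hist4h4, which lies on chromosome 6 outside the Hist1, Hist2 and Hist3 clusters and near the variant gene H2afj, fell by 1.11. The calls of Hist1h4d (-1.04), Hist1h4k (-1.04), Hist2h4 (-0.99) and Hist1h4i (-0.75) were also lower, and Hist1h4h (-0.37, adjusted p = 0.333 by limma) had none.

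The H2A class held 14 genes, of which 8 fell and 0 rose in limma, beside 7.42% lower and 7.83% higher of all genes, with a median of -0.98. At an unadjusted p under 0.05, 10 were lower and 0 higher. The largest difference was that of Hist1h2ab, -1.81. Hist1h2an read 8.35, 8.27, 8.43 and 8.21 with eGFP and 6.75, 6.65, 7.17 and 6.80 with Hoxa9, a 2.78-fold fall (difference -1.47, SE 0.15, adjusted p = 0.000552). Hist1h2ah read 8.82, 8.85, 8.70 and 8.74 and 7.65, 7.50, 7.72 and 7.61, with the narrowest spread of the 3 genes given in full (difference -1.16, SE 0.12, adjusted p = 0.000573). Hist1h2af read 8.69, 8.65, 8.48 and 8.66 and 7.49, 7.28, 7.66 and 7.43 (difference -1.16, SE 0.14, adjusted p = 0.000994). None of these groups overlapped. Hist1h2ag, Hist2h2ac, Hist1h2ak and Hist2h2aa2 differed by -1.23, -1.10, -1.01 and -0.96 and were called lower as well. The 6 genes without a call ranged from -0.76 (Hist2h2ab) to 0.31 (Hist1h2al, -0.04 without eGFP replicate 1), and among them Hist2h2ab and Hist1h2ac (-0.51) had every Hoxa9 array below every eGFP array. Hist1h2aa, the testis H2A, differed by -0.08 (adjusted p = 0.734, limma).

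Of those H2A genes, 7 and the variant H2afj are read by probes from near the end of the H2A coding sequence, shown here because their calls share bases. Capitals mark the longest run that each probe shares with the probe of Hist1h2ah, which is given first in lower case.
Hist1h2ah: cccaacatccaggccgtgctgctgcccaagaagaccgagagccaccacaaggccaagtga
Hist1h2af: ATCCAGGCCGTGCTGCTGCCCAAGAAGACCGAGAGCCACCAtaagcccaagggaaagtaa
Hist2h2ac: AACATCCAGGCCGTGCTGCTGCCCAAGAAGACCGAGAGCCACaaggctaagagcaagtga
Hist1h2ag: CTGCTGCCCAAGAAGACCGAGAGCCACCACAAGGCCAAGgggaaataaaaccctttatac
Hist1h2ak: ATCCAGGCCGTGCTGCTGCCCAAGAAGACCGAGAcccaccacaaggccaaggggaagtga
Hist1h2an: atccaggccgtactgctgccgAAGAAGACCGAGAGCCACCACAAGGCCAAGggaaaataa
Hist2h2aa2: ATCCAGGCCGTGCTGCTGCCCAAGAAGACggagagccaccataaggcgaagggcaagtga
H2afj: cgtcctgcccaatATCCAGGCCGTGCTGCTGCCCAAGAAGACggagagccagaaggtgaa
The shared runs were 29 to 42 bases of the 60 in a probe, the longest being that of Hist2h2ac. Transcripts of 1 such gene may bind the probes of the others, so these 8 differences, between -1.47 and -0.96, are not independent of each other. Their order among the genes is likewise not a measurement of single genes.

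Over all clustered genes, 15 probes list transcripts of several RefSeq genes, and of these 12 were lower and 1 higher with each probe tested singly, at a median of -1.05. Of 37 probes that list 1 RefSeq gene 36 were tested, and 18 were lower and 1 higher, at a median of -0.68; among all probes of the array 6.65% were lower and 6.82% higher. The 5 probes that list none gave 1 lower and 1 higher call. Falls were therefore also found where a probe lists a single gene, such as Hist1h3a, Hist1h1a and Hist1h2ab, though a listing is not a test of binding.

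The H2B class held 12 genes, of which 3 fell and 0 rose in limma (4 lower and 2 higher at an unadjusted p under 0.05), beside 7.42% lower and 7.83% higher of all genes, with a median of -0.22. Hist2h2bb read 2.51, 2.94, 3.48 and 3.22 with eGFP and 0.71, 0.80, 1.62 and 1.06 with Hoxa9. Its fall was 3.98-fold (difference -1.99, SE 0.27, adjusted p = 0.00190), and the groups lay far apart although the arrays of each spread widely. Hist1h2bb read -2.77, -2.81, -2.72 and -2.70 and -4.33, -3.21, -4.03 and -4.22 (difference -1.20, SE 0.24, adjusted p = 0.0125), with the eGFP arrays close together and Hoxa9 replicate 2 nearest to them. With normexp its difference was -0.51 (adjusted p = 0.0415, limma). Hist1h2bg read -2.76, -2.87, -2.49 and -2.80 and -3.999, -3.17, -3.34 and -3.50 (difference -0.77, SE 0.20, adjusted p = 0.0356). That call is at the edge: with the replicate block its adjusted p was 0.0528 (limma). It was lost on leaving out any single array other than Hoxa9 replicate 2, with adjusted p-values of 0.0613 to 0.0932, and with normexp, at -0.34 (adjusted p = 0.189, limma).

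Hist1h2bc had the largest positive difference of the H2B genes. It read 3.59, 3.49, 4.37 and 4.55 with eGFP and 4.73, 4.599, 5.05 and 5.51 with Hoxa9 (difference 0.97, SE 0.31, adjusted p = 0.0712 by limma). Replicates 3 and 4 read higher than 1 and 2 in both groups, and every Hoxa9 array lay above every eGFP array; with the replicate block the adjusted p was 0.0125, which makes it a call. Within the slides it differed by 1.97, 0.30 and 0.50. Hist1h2be (0.48, adjusted p = 0.112, limma) had the same order of arrays without a call. The testis gene Hist1h2ba differed by -0.46 (adjusted p = 0.0996, limma), and the remaining H2B genes ranged from -0.39 (Hist1h2bm) to 0.36 (Hist2h2be), with none called.

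The linker histones split. Of 6 clustered H1 genes 2 fell, 1 rose and 3 had no call, beside 7.42% lower and 7.83% higher of all genes. Hist1h1a read 0.64, 0.93, 1.33 and 1.27 with eGFP and -1.55, -0.98, -0.75 and -0.71 with Hoxa9, a 4.11-fold fall (difference -2.04, SE 0.24, adjusted p = 0.000975). Hist1h1b read 4.40, 5.22, 5.10 and 5.54 and 2.58, 3.08, 4.04 and 3.04 (difference -1.88, SE 0.35, adjusted p = 0.00828). In both, the lowest eGFP array was still above the highest Hoxa9 array. Hist1h1c, which encodes H1.2 and is known to make polyadenylated RNA too, read 1.54, 1.62, 2.03 and 2.11 with eGFP and 2.91, 2.83, 2.83 and 2.91 with Hoxa9. Its rise was 2.07-fold (difference 1.05, SE 0.17, adjusted p = 0.00401), with the Hoxa9 arrays close together and differences of 1.34, 0.84 and 0.72 within the slides. Hist1h1e (-0.59), Hist1h1d (0.83) and the testis gene Hist1h1t (0.79) were not called (adjusted p of 0.212, 0.376 and 0.566 by limma), and Hist1h1d was above background on 1 eGFP and 3 Hoxa9 arrays. Without Hoxa9 replicate 4 the difference of Hist1h1t was -0.07.

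**Figure D2:**
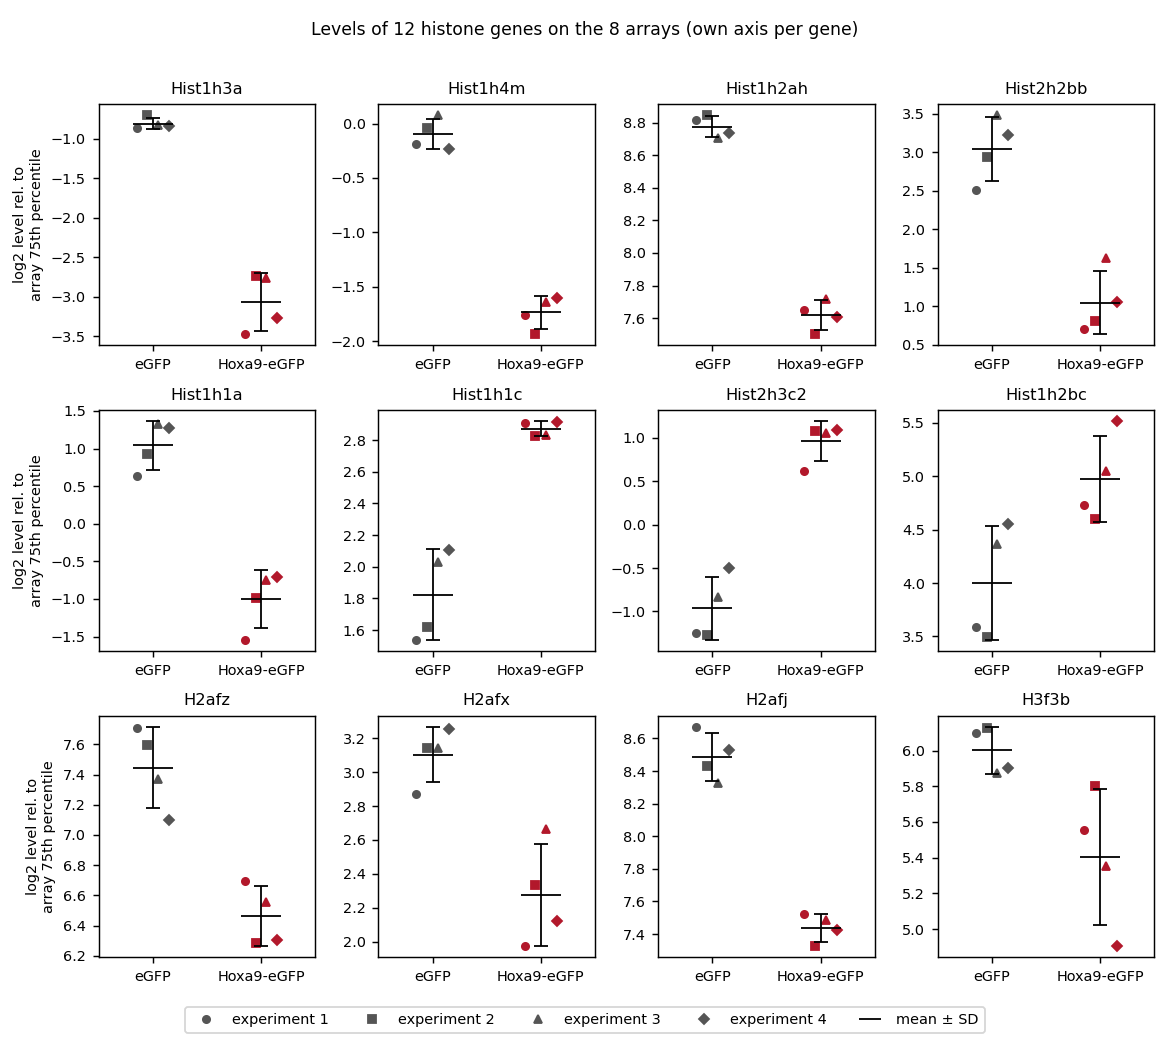
Log2 levels relative to the array's 75th percentile (y axis, scaled separately per gene) of 12 histone genes on the 4 eGFP and 4 Hoxa9-eGFP arrays; each symbol is an array, its shape the experiment number, and the bars the group mean ± SD. The groups do not overlap in any of the 12 panels; Hist1h1c, Hist2h3c2 and Hist1h2bc are the panels where Hoxa9 arrays lie higher.

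The variants were examined gene by gene. H2afz, one of the genes of H2A.Z, read 7.71, 7.59, 7.37 and 7.10 with eGFP and 6.69, 6.29, 6.56 and 6.31 with Hoxa9, a 1.98-fold fall (difference -0.98, SE 0.18, adjusted p = 0.00784), and its other probe differed by -1.09. Within the slides H2afz differed by -1.35, -0.88 and -0.54. Its sister gene H2afv read 5.18, 5.25, 5.48 and 5.16 and 5.16, 5.11, 5.26 and 5.13, overlapping, with a difference of -0.10 (SE 0.13, adjusted p = 0.634 by limma) that turned positive under quantile normalization (0.06) and in the mean of its probes (0.01), and was 0.0009 with normexp. The H2A.Z genes thus had different calls; their difference was not tested.

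H2afx, the gene of H2A.X, read 2.87, 3.14, 3.14 and 3.25 with eGFP and 1.97, 2.33, 2.67 and 2.12 with Hoxa9 (difference -0.83, SE 0.18, adjusted p = 0.0182). The groups did not overlap, but the call was lost without eGFP replicate 2, 3 or 4 or Hoxa9 replicate 1, at adjusted p-values of 0.0504 to 0.0566. H2afx is known to make both a hairpin-ended and a polyadenylated RNA.

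H2afj, the gene of H2A.J, read 8.67, 8.43, 8.32 and 8.53 with eGFP and 7.52, 7.33, 7.49 and 7.42 with Hoxa9 (difference -1.05, SE 0.13, adjusted p = 0.00140). That is the probe printed above, which shares 38 bases with the probe of Hist2h2aa2. A second probe of H2afj, placed further along the gene, read 0.47, 0.46, 0.51 and 0.65 with eGFP and 0.67, 0.63, 0.66 and 0.71 with Hoxa9, a difference of 0.14 (SE 0.12, adjusted p = 0.502 with each probe tested singly by limma). The probes of H2afj therefore part in sign, and with their mean the difference was -0.45.

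The macroH2A genes gave 1 call. H2afy read 2.99, 3.15, 2.83 and 2.37 with eGFP and 2.11, 2.52, 2.13 and 1.75 with Hoxa9 (difference -0.71, SE 0.23, adjusted p = 0.0736 by limma), with eGFP replicate 4 inside the range of the Hoxa9 arrays. H2afy was called in 6 of 19 alternatives. Among them were the replicate block (adjusted p = 0.0220, limma), normexp (difference -0.76, adjusted p = 0.0380, limma), and leaving out eGFP replicate 4 (0.0380, limma) or Hoxa9 replicate 2 (0.0436, limma). Its other probes differed by -0.76 (adjusted p = 0.0313, a call with each probe tested singly by limma) and -0.14. H2afy2 read 3.296, 3.22, 2.43 and 2.75 and 2.78, 2.78, 2.64 and 2.81, overlapping (difference -0.17, SE 0.21, adjusted p = 0.623 by limma). H2afy3, named Macroh2a3 in RefSeq, read 2.89, 2.83, 2.28 and 2.44 and 1.88, 2.17, 1.99 and 1.75 (difference -0.67, SE 0.19, adjusted p = 0.0459). This call too is at the edge, with 0.0521 under the replicate block (limma) and 0.0645 to 0.131 without eGFP replicate 1, 2 or 4 or Hoxa9 replicate 1, 3 or 4. The H2afy3 probe begins with the same bases that end the H2afy2 probe. Whether H2afy2 transcripts bind the H2afy3 probe was not measured.

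Neither H3.3 gene was called. H3f3a read 5.61, 5.54, 5.50 and 5.34 with eGFP and 5.08, 5.00, 5.24 and 5.44 with Hoxa9 (difference -0.31, SE 0.15, adjusted p = 0.222 by limma), with Hoxa9 replicate 4 inside the eGFP range. Its other probe differed by -0.38 (adjusted p = 0.101 with each probe tested singly by limma). On that probe every Hoxa9 array lay below every eGFP array, which held for 12% of all kept probes. H3f3b read 6.10, 6.13, 5.88 and 5.90 and 5.55, 5.80, 5.35 and 4.90 (difference -0.60, SE 0.20, adjusted p = 0.0928 by limma). All Hoxa9 arrays of H3f3b lay below the eGFP arrays, with differences of -1.21, -0.20 and -0.55 within the slides. It was called in 3 of 19 alternatives, among them without Hoxa9 replicate 2 (adjusted p = 0.0413, limma) and with normexp (0.0115, limma). The 3 probes of H3f3b differed by -0.68, -0.60 and -0.52, so they gave similar values.

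The last variants had no call. H2afb1, named H2al2a in RefSeq, read -5.59, -5.69, -5.39 and -3.22 with eGFP and -5.63, -4.90, -5.63 and -5.21 with Hoxa9 (difference -0.37, SE 0.53, adjusted p = 0.678 by limma), and was above background on 3 arrays of each group. Without eGFP replicate 4 its difference was 0.21. H2afb2-ps read -4.54, -3.46, -3.93 and -3.59 and -4.23, -1.97, -3.86 and -3.19 (difference 0.57, SE 0.48, adjusted p = 0.482 by limma), with overlapping groups, and was above background on every array. In all, 6 of the 60 histone genes were not above background on every array, 0 of them were dark throughout a group, and 0 of the 6 were called by limma, also at an unadjusted p under 0.05.

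Some probes reach the end of the histone messenger RNA. A hairpin with a stem of 6 bases that begins GG and a loop of 4 bases that begins with T was searched for in all probes, and 16 of 55681 (0.0287%) hold it. Among the clustered genes it was 6 of 57 (10.5%), and 0 of 19 among the variants. These 6 are shown from the probes, with the hairpin in capitals and up to 7 bases on each side, because they mark where the replication-dependent RNA normally ends.
Hist1h3a, chr13:23853756-23853815 (minus strand): aaccaaaGGCTCTTTTCAGAGCCaca
Hist1h3g, chr13:23627719-23627778 (plus strand): ctttaaaGGCTCTTCTTAGAGCCaccca
Hist1h3i, chr13:21874784-21874843 (minus strand): aacaaaaGGCTCTTTTCAGAGCCccctc
Hist1h4m, chr13:21903960-21904019 (plus strand): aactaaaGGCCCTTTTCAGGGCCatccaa
Hist2h2bb, chr3:96074056-96074115 (plus strand): cccaaaaGGCTCTTTTCAGAGCCacttta
Hist2h2aa2, chr3:96043669-96043728 (minus strand): taaaaaGGCTCTTTTCAGAGCCacccact
The positions are those of the whole probe in the files' mm9 build. In the first 5 genes the probe ends 3 to 6 bases after the hairpin, so nearly all of it lies in the RNA before that end. Those 5 probes were all lower, by -2.26 to -1.64 with a median of -1.94, beside 6.65% lower of all kept probes tested singly. All 5 are among the 8 largest falls of the 60 genes. The probes of Hist1h3a, Hist1h3i and Hist2h2bb share runs of 19 to 21 bases with each other, which include the hairpin. The 5 falls may thus not be independent of each other.

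The sixth probe, of Hist2h2aa2, has 38 bases after the hairpin, so most of its length lies beyond the normal end of the RNA. It read 1.45, 1.46, 1.56 and 1.47 with eGFP and 2.92, 2.93, 3.24 and 3.79 with Hoxa9. Every Hoxa9 array was above every eGFP array, which held for 10.3% of all kept probes, and 12% lay fully below. The probe rose 3.33-fold (difference 1.73, SE 0.21, adjusted p = 0.00127 with each probe tested singly). The coding probe of the same gene, 52 bases away on the same strand at chr3:96043781-96043840 (minus strand), read 8.00, 8.06, 8.19 and 8.42 with eGFP and 7.09, 7.47, 7.41 and 6.85 with Hoxa9 and fell (difference -0.96, SE 0.19, adjusted p = 0.0117). With the mean of its probes Hist2h2aa2 had 0.39 and no call (adjusted p = 0.0900, limma). Next along that strand, 1575 bases further in the direction of transcription at chr3:96042034-96042093 (minus strand), is the probe of Hist2h3c2, which rose by 1.92. The probe sequences behind the rises, at the end of Hist2h2aa2 and at Hist2h3c2, thus lie in a row on the minus strand of chromosome 3, downstream of a coding probe that fell. Whether 1 RNA covers both was not measured. Both Hist2h2aa2 probes list the same pair of RefSeq genes, H2ac18 and H2ac19, so which copy was read is uncertain. The search took whole hairpins only. The probe of Hist1h2ae begins with the last part of the same hairpin letters, so most of it also lies beyond them. Its difference was -0.09 without a call, with eGFP replicate 1 far below the other eGFP arrays.

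Of the genes with more than 1 kept probe, 3 had probes that differ in sign: Hist2h2aa2, H2afj and H2afv. The probes of Hist1h4i gave -0.75, -1.35 and -0.21, of which all but the last were called lower. For Hist2h4 they gave -0.99 and -0.16, the first called, and their mean -0.58 without a call (adjusted p = 0.0954, limma); for Hist1h2ak -1.01 and -1.75, both called; for Hist2h2bb -1.99 and -0.78, the first called. A histone gene could thus pass or miss the threshold by the probe that stands for it. Over single probes, 31 of the 56 tested for clustered genes were lower and 3 higher, and 5 of the 19 for variants were lower. Among all kept probes 6.65% were lower and 6.82% higher.

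**Figure D3:**
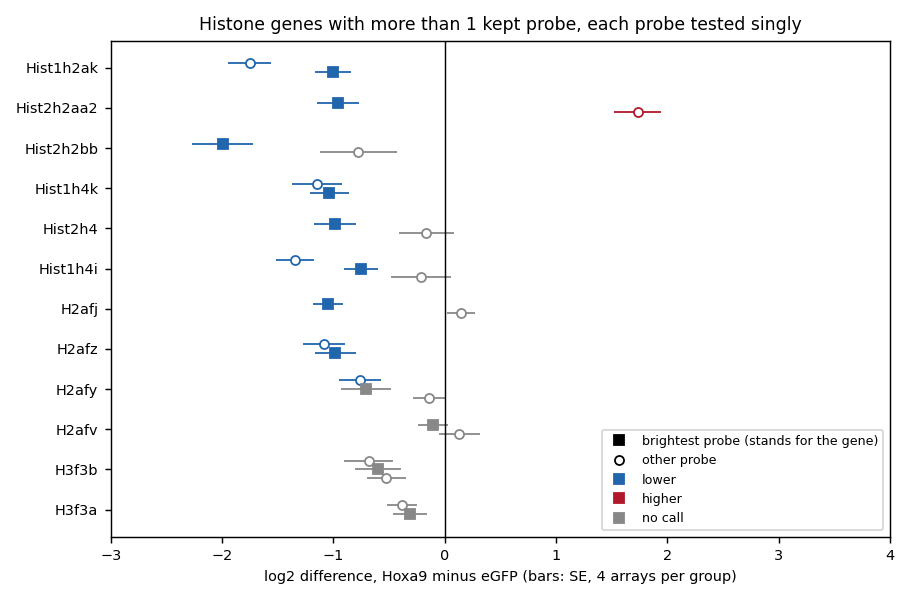
Log2 differences (x axis, Hoxa9 minus eGFP) of every kept probe for the 12 histone genes with more than 1; squares are the brightest probes, open circles the others, bars the SE over 4 arrays per group, colours the call with each probe tested singly. The probes of Hist2h2aa2 lie on opposite sides of 0 at -0.96 and 1.73, both with a call.

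Grouped by the cluster in their name, 22 of 37 Hist1 genes fell and 1 rose, and 5 of 8 Hist2 genes fell and 1 rose. The Hist1 count includes Hist1h2al, whose probe lies apart from the other Hist1 probes, at chr13:51299277-51299336. Over all genes 7.42% were lower and 7.83% higher. Of 3 Hist3 genes 0 were called in either direction by limma (0 also at an unadjusted p under 0.05). They differed by -0.21 (Hist3h2ba), 0.18 (Hist3h2bb-ps, -0.21 without Hoxa9 replicate 2) and 0.19 (Hist3h2a). Hist3h2ba and Hist3h2bb-ps were not above background on every array. Many clustered genes stand back to back and are transcribed away from each other. With probes less than 3000 bases apart in this arrangement there were 7 pairs. In 2 pairs both genes fell, Hist1h3a with Hist1h1a (-2.26 and -2.04) and Hist1h3c with Hist1h2bb (-0.58 and -1.20). In 3 pairs, each of an H2A and an H2B gene, 1 gene of the pair was called: Hist1h2an fell (-1.47) and its neighbour Hist1h2bp had 0.19, Hist2h2ac fell (-1.10) and Hist2h2be had 0.36, and Hist1h2bg fell (-0.77) and Hist1h2ae had -0.09. The value of Hist1h2ae rests on eGFP replicate 1, without which it was -1.26 (SE 0.34, adjusted p = 0.0576 by limma). The difference within a pair was not tested. The probes of Hist1h2an and Hist2h2ac share bases with other H2A probes, as shown above, so their values may not belong to these positions alone. The testis pair Hist1h2ba and Hist1h2aa and the pair of Hist3h2a and Hist3h2bb-ps had no call.

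The promoters of the genes were read from RefSeq (GRCm38.p6), as windows of 250 bases before to 50 after the start, and 49 of the 60 genes matched, 40 clustered and 9 variants. Letters were searched on both strands: CCAAT for the CCAAT box, TATAAA for the TATA box, the octamer ATTTGCAT bound by Oct-1, and either TTTCCCGC or else TTTGGCGC for E2F. Matches of different motifs were counted separately, also where they overlap. CCAAT was in 35 of the 40 clustered windows (87.5%), beside 37.9% of 27025 promoters, and TATAAA in 24 (60.0%), beside 14.2%. The octamer was in 12 (30.0%), beside 1.75%, and all 12 were H2A or H2B genes: 7 of 13 H2A and 5 of 9 H2B windows held it. Among these, the windows of Hist1h2aa and Hist1h2ba overlap, as do those of Hist1h2ae and Hist1h2bg. The same octamer can therefore count for both genes of such a pair. E2F letters were in 0 of 40 windows, beside 1.63% of all promoters. Among the 9 variants CCAAT was in 7, TATAAA in 1 and the octamer in 1. Of the 12 genes with the octamer 6 fell, and of the 28 without it 18 fell and 1 rose. With TATAAA 15 of 24 fell, and of the 16 without it 9 fell and 1 rose. With CCAAT 20 of 35 fell and 1 rose, and of the 5 without it 4 fell. Over all genes tested 7.42% were lower and 7.83% higher. The differences between genes with and without a motif were not tested. A match of letters is a description of the window and not of a bound site.

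Shown are 3 promoters, of an H2A gene and an H2B gene with large falls and of the H1 gene that rose, with the matched letters on either strand in capitals, from the 250 bases before the start.
Hist1h2ab, chr13:23750838-23751087, plus strand: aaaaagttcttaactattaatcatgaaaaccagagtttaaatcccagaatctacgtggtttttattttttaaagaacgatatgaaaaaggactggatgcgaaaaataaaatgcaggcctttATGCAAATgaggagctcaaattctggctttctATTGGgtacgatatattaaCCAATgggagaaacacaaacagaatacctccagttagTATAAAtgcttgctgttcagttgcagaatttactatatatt
Hist2h2bb, chr3:96269450-96269699, plus strand: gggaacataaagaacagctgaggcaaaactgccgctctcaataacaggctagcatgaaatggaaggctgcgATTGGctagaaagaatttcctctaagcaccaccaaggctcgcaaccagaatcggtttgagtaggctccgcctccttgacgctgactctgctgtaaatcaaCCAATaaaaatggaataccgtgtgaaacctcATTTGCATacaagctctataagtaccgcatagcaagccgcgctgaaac
Hist1h1c, chr13:23738557-23738806, plus strand: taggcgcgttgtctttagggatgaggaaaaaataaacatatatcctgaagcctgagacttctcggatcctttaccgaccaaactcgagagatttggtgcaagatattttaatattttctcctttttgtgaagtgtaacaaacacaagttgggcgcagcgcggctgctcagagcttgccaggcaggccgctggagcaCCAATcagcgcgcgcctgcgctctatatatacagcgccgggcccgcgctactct
Hist1h2ab and Hist2h2bb both hold the octamer, the first on the opposite strand, and CCAAT in both orientations, and Hist1h2ab also TATAAA. Hist1h1c holds CCAAT alone of the letters searched.

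Genes that act with the histones were read from lists of their own. In the list of replication and S phase genes 40 of 50 tested genes fell and 0 rose in limma (beside 7.42% and 7.83% of all genes), with a median of -1.34; at an unadjusted p under 0.05, 47 were lower and 0 higher. Their mean level was 2.12, 2.04, 1.79 and 1.67 on the eGFP arrays and 0.58, 0.58, 0.89 and 0.43 on the Hoxa9 arrays. Dut, which keeps uracil out of DNA, read 3.32, 3.20, 3.15 and 3.08 with eGFP and 1.30, 1.44, 1.54 and 1.29 with Hoxa9 (difference -1.79, SE 0.13, adjusted p = 0.000110). Uhrf1, which guides maintenance methylation at replication forks, fell by 1.88 (SE 0.18, adjusted p = 0.000396), and Ccne1, the cyclin E1 of S phase entry, by 1.83 (SE 0.18, adjusted p = 0.000468). In these 3 genes no Hoxa9 array reached an eGFP array. The phase of the cell cycle was not measured, and the part of these genes in the histone results was not tested.

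In the list of genes for the transcription and 3′ end processing of histone RNA, 4 of 21 tested genes fell and 0 rose in limma (5 and 1 at an unadjusted p under 0.05), beside 7.42% and 7.83% of all genes, with a median of -0.31, beside -0.07 for all genes. Sympk, the scaffold of the cleavage complex shared with polyadenylation, read 2.65, 2.86, 2.41 and 2.82 with eGFP and 1.18, 1.33, 0.97 and 1.08 with Hoxa9 (difference -1.55, SE 0.16, adjusted p = 0.000485). Cstf2, a cleavage factor subunit, fell by 1.12 (SE 0.12, adjusted p = 0.000707), and Eri1, an exonuclease that trims the hairpin end, by 0.91 (SE 0.21, adjusted p = 0.0234). The fourth was Cpsf2 (-0.70). The call of Eri1 was lost without eGFP replicate 1 or 2 or Hoxa9 replicate 3 (adjusted p of 0.0618 to 0.0741, limma), and that of Cpsf2 without any 1 array but eGFP replicate 4 or Hoxa9 replicate 1 (0.05004 to 0.0743). The hairpin's own binding protein Slbp had -0.45 (SE 0.25, adjusted p = 0.298, limma) and Npat, the coactivator of the clustered genes, -0.24 (SE 0.29, adjusted p = 0.605, limma), without calls.

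Among histone chaperones and remodellers 9 of 34 tested genes fell and 1 rose, beside 7.42% and 7.83% of all genes, with a median of -0.42. Nasp, which keeps the pool of free H3 and H4, read 4.91, 4.66, 4.18 and 4.18 with eGFP and 2.89, 2.60, 3.14 and 2.91 with Hoxa9 (difference -1.60, SE 0.21, adjusted p = 0.00167). Asf1b, which hands H3 and H4 on for assembly, fell by 1.59 (SE 0.22, adjusted p = 0.00200). The one rise was that of Nap1l3, a member of the nucleosome assembly protein family, with -3.72, -3.69, -3.24 and -3.79 against -2.08, -2.16, -2.14 and -1.93 (difference 1.53, SE 0.16, adjusted p = 0.000570). Daxx (0.24), Atrx (-0.23) and Hira (1.16, SE 1.24), which serve H3.3 and were looked up after the values were seen, had no call. They are a pick from the list and do not stand for all H3.3 chaperones. In the same list Dek fell by 1.02 (SE 0.17, adjusted p = 0.00425, limma). Ubn1 (0.43), Ubn2 (-0.20) and Cabin1 (-0.16) had no call. Hira read -4.82 on eGFP replicate 1 and 0.65 to 1.33 on the other eGFP arrays, and without that array its difference was -0.27.

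Of 10 tested genes of other histones and HMG proteins, 6 fell and 0 rose in limma (8 and 1 at an unadjusted p under 0.05), beside 7.42% and 7.83% of all genes, with a median of -0.67. Hmgb2, a DNA-bending protein of dividing cells, read 4.602, 4.61, 4.51 and 4.34 with eGFP and 2.55, 2.24, 3.33 and 2.88 with Hoxa9 (difference -1.76, SE 0.23, adjusted p = 0.00166), and all Hoxa9 arrays were lower. The nucleosome-binding Hmgn2 fell by 0.97 (adjusted p = 0.00912) and Hmgb1 by 1.23 (adjusted p = 0.00948). The centromeric H3 gene Cenpa (-1.18), Hmgn1 (-0.60) and the linker histone gene H1f10 (-0.73) also fell. These calls were lost on leaving out single arrays: Cenpa without eGFP replicate 1, 2 or 3 (adjusted p of 0.0568 to 0.0665, limma), Hmgn1 without any 1 array but eGFP replicate 3 or Hoxa9 replicate 2 (0.0556 to 0.0677), and H1f10 without any 1 array but Hoxa9 replicate 4 (0.0579 to 0.0741). H1f0, the linker histone of resting and differentiated cells, had 0.43 (SE 0.18, adjusted p = 0.158, limma).

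**Figure D4:**
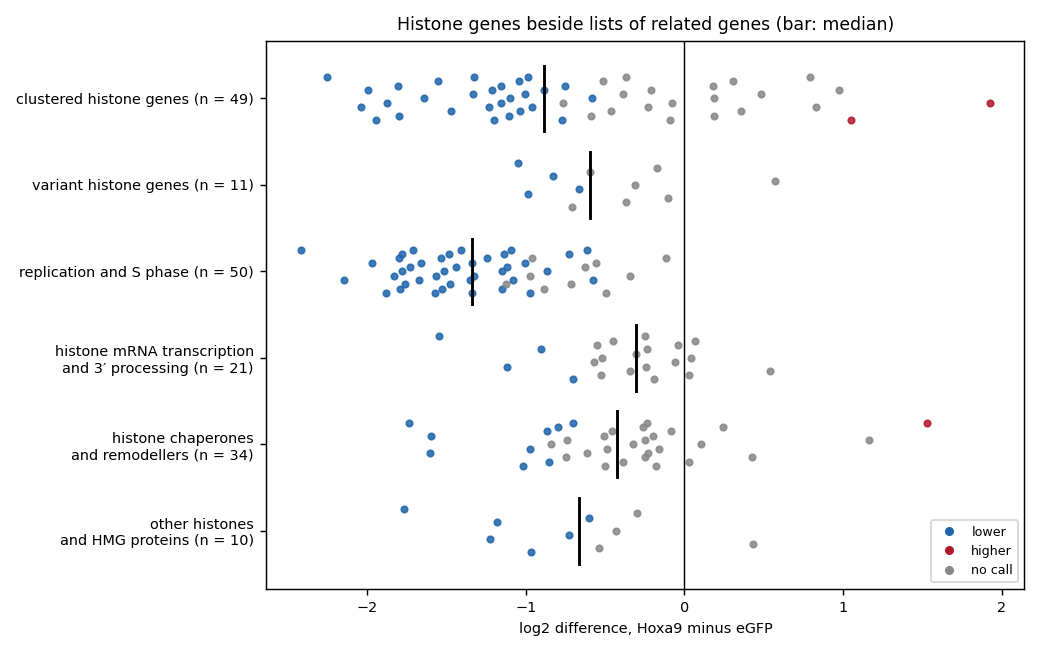
Log2 differences (x axis, Hoxa9 minus eGFP) of the clustered and variant histone genes beside the lists of related genes; each point is a gene, its colour the call, and the black bar the median of the list. The medians are -0.88 for the clustered genes, -0.60 for the variants and -1.34 for replication and S phase genes, and the other lists lie between -0.67 and -0.31.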

How the data were processed

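Spot intensities were deposited as scanner output of the 8 arrays; per the file headers, Feature Extraction had corrected their background and had not brought the arrays to a common scale (version 10.7.3.1, per the submitters' processing notes). A second deposited table by the authors holds score values in which 86.1% to 87.3% of cells had lost the decimal point. After its repair, 99.998% or more of the probes on an array were a log2 scanner value shifted by a constant (within 0.05), and its column medians were -3.36 to -2.95. It is thus on a log2 scale without centring by gene, and was used as an alternative alone.

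Signals were converted to log2 and scaled by subtracting the 75th percentile of the probes that are not controls (514 to 779 signal units). Each array held 62976 spots with 3671 controls and no saturated spot. Controls and 180 of 55681 probes with an outlier spot were removed, and repeated spots were averaged. A probe was kept when well above background on at least 4 of 8 arrays (40771 probes), and the brightest kept probe represents its gene (27107 genes). Histone genes keep the name in the files; other names were updated through RefSeq (GRCm38.p6; 27656 probes matched, 1711 with a new name). Probe positions are in mm9, per the file headers.

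The groups were tested in limma 3.58.1 under R 4.3.3 with lmFit and eBayes, two-sided, with group as the sole term and Benjamini-Hochberg adjustment over all genes (threshold 0.05); the fit was checked on simulated data. Samples of the same experiment number deviated together (correlations of 0.129 to 0.228 over 4 pairs, each above the limit of 0.1, as were 2 of 12 pairs of unlike number), so the number counted as a pairing and entered a block in 1 alternative.

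The histone genes and the lists were chosen with earlier results of these data known. Full statistics are given for the 3 genes of lowest adjusted p in each clustered class, every variant and the 3 largest positive differences among clustered genes, and the 3 called genes of lowest adjusted p are named from each list; array values are left out for some of the latter. Other genes are given by their difference.

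Alternatives were quantile and median scaling, normexp background correction with offset 50, no filter or all 8 arrays above background, the deposited table, averaging or separating a gene's probes, blocks for the replicate and for the slide, values within slides, limma's trend and robust options, weights per array, a minimum change of 2-fold, and the omission of single arrays.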

Additional observations from a re-analysis of the deposited data

Results flagged for a closer look

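In 120 groups of 4 arrays, 1 per histone gene and condition, 7 held an array whose distance from its nearest neighbour took more of the group's range than Dixon's limit for 4 values, which chance gives in about 1 of 20 groups.

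Hist2h3c2, the H3 gene that rose, was flagged for Hoxa9 replicate 1 at 0.61, beside 1.05 to 1.09 on the other Hoxa9 arrays (0.912 of the range); that array still lay above every eGFP array. Hist2h4 was flagged for Hoxa9 replicate 3 at 5.76, beside 5.27 to 5.34 (0.846), also without overlap with the eGFP arrays. Both genes are called.

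The other 5 flags fell on genes without a call. Hist1h2ae had eGFP replicate 1 at -7.26, beside -2.84 to -2.16 on the other eGFP arrays (0.867); without it the difference was -1.26. Hist1h1t, the testis linker histone, had Hoxa9 replicate 4 at 1.41, beside -2.37 to -1.78 (0.844); without it the difference was -0.07. H2afb1 had eGFP replicate 4 at -3.22, beside -5.69 to -5.39 (0.878). Hist1h4h had Hoxa9 replicate 2 at -1.51, beside -0.75 to -0.65 (0.882). Hist1h2aa had eGFP replicate 1 at -1.32, beside -1.59 to -1.54 (0.832).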

How the results depend on the processing

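The clustered genes kept 26 to 28 of their 28 lower calls and both higher calls under each of the 19 alternatives that refit all genes, and these alternatives moved the median of all genes by at most 0.0408 (normexp). Leaving out 1 array gave a clustered median of -1.02 to -0.82 with 26 to 27 lower and 2 higher, a variant median of -0.73 to -0.43 with 2 to 6 lower and 0 higher, and 1288 to 1892 lower and 1582 to 1902 higher over all genes. With the replicate block 27 clustered genes were lower and 3 higher (Hist1h2bc in addition) and 4 variants lower, and it changed no other call than those given beside Hist1h3c, Hist1h2bg, Hist1h2bc, H2afy and H2afy3, and that of Hist2h2ab (now lower, adjusted p = 0.0410, limma), among the histone genes.

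The clustered median was -0.63 with normexp, which also moved Nap1l3 from 1.53 to 0.90. The variant median was -0.50 with quantile normalization, -0.74 with normexp, -0.45 with the mean of a gene's probes, -0.52 over single probes, and -0.88, -0.35 and -0.45 within slides 1 to 3. A 2-fold minimum left 1 lower variant, and 1124 lower and 1357 higher genes in all. That variant is H2afj, read by the probe that shares bases with clustered H2A probes. Quantile normalization turned H2afv to 0.0635, normexp to 9e-04 and the mean of its probes to 0.0137, and H2afb1 ranged from -0.61 to 0.21 when 1 array was left out. The cause of these shifts was not tested.

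Limits: probes of clustered genes share sequence, 4 arrays per group set the precision, and 6 genes were not above background on every array.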
